A study of Mus musculus with 4 samples.

Results

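Chondroitin sulfate is a long sugar chain, carried by proteins called proteoglycans, whose charge and binding depend on where sulfate groups sit along it. Its chain is begun on a short linker sugar by N-acetylgalactosaminyltransferases, extended by a synthase that works together with partner subunits, and sulfated in the Golgi by sulfotransferases that act at different positions of the sugar. In blood cells much of it is carried by serglycin, the proteoglycan of storage granules. The genes described here are 8 chain-building and sulfating genes, matched by symbol to Entrez identifiers among 26286 genes counted in LSK cells of mouse bone marrow (lineage-negative cells with Sca-1 and Kit, the fraction that holds stem cells and multipotent progenitors). They are Csgalnact1 and Csgalnact2 for initiation, Chsy1, Chpf and Chpf2 for extension, and Chst11, Chst12 and Chst3 for sulfation. They were chosen by name with their counts in these 4 libraries already known, chiefly the difference of Chst3 between the groups, so their differences are given as descriptions without a test.

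The study set 2 LSK libraries labelled Hhex-deleted against 2 of wild-type cells, all from C57BL/6 mice. Hhex is a homeobox transcription factor. The labels name no Cre driver or other means of deletion, no age or sex, and no separate mice for the libraries, so errors and p-values cover the spread among the sequenced libraries alone. Total counts lay between 27871827 and 29501591 per library. Hhex itself stood at 179 and 188 CPM (reads scaled to a common library total) in the libraries labelled Hhex-deleted, against 127 and 115 CPM in wild-type. This goes against the label, though a count over the whole gene also takes in any exons left in place and cannot check the deletion; groups are named as labelled. Labelled Hhex-deleted replicate 1 differed from the other 3 libraries in sex-linked genes, with 2662 CPM of Xist against 1.89 to 2.66 CPM in the others and 0.343 CPM of the Y-linked Ddx3y against 124 to 138 CPM. Each member's log2 fold change is therefore also given without it. None of the 10 marker genes of the LSK gate and of stem or progenitor cells passed edgeR's test (1 had an unadjusted p under 0.05). The 2 libraries labelled Hhex-deleted differed from each other in Ly6a, Flt3, Procr and Hlf, so this does not show equal content. Flt3, for one, had 282 and 506 CPM in them, against 301 and 276 CPM in wild-type. Log2 fold changes of these genes ran from 0.70 to 0.81 without labelled Hhex-deleted replicate 1. They ran from -0.75 to -0.03 without labelled Hhex-deleted replicate 2.

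The promoter windows of Chst3 and Chpf, the members with the largest differences, are shown with that of Chpf2, the close relative of Chpf. Each window runs from 250 bases before to 50 bases after the start site, from RefSeq on GRCm38.p6, and is written along the gene's own strand. The windows are chr10:60219211-60219510 (minus strand) for Chst3, chr1:75479422-75479721 (minus strand) for Chpf and chr5:24586494-24586793 (plus strand) for the first of 2 Chpf2 windows. Capitals mark the cAMP response element TGACGTCA and the GC box GGGCGG on either strand.
Chst3: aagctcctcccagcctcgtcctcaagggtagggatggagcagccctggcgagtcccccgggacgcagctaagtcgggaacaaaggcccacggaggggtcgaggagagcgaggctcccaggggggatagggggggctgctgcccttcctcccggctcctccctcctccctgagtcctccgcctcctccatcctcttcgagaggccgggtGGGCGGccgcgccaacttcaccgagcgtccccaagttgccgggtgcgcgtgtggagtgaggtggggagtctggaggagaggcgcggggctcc
Chpf: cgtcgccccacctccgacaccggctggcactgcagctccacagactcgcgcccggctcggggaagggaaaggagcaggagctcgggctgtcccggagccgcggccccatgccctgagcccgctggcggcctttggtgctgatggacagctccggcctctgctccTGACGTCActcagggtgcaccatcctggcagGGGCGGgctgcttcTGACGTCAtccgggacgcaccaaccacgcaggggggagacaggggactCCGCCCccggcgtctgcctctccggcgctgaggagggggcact
Chpf2: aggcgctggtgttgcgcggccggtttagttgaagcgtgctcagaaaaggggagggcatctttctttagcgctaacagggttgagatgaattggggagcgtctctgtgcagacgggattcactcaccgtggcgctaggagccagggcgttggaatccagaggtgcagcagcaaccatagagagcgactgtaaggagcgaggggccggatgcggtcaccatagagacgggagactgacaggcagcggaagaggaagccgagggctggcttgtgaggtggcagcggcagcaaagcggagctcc

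A window was found for 7 of the 8 genes. The Chpf window held 2 copies of TGACGTCA, beginning at positions -86 and -41 from the start site, and no window of the other members held that sequence. Of 32851 RefSeq promoter windows of this length, 1.79% held TGACGTCA and 13 windows held at least 2 copies. Among those 13 are the window of Chpf and that of its neighbour Tmem198, which overlap and hold the same copies. GGGCGG was present in the windows of Chst3, Chpf, Chsy1, Chst11 and Chst12 and in the first of the 2 Csgalnact2 windows, against 35.7% of all windows. ATTAA, the letters searched here for a homeobox factor core, was in none of the members' windows and in 27.1% of all windows, searched on both strands. Shorter forms of such a core were not searched. All members' windows were rich in CpG, with 20 to 34 CpG per window and a median of 7 over all windows. They held 60.3% to 71.7% G and C, beside a median of 52.7% over all windows. The shares of motifs over all windows are thus not matched for base composition. Motif counts are matches of letters and say nothing of which factor binds.

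Among the 8 genes, those for Chpf and Chst3 stood far higher in the libraries labelled Hhex-deleted, and the other 6 differed by less than 0.5 on the log2 scale. All 8 passed the filter on low counts. The fit across all genes placed 2 members past its threshold, both higher, and 0 lower (2 higher and 3 lower with DESeq2, 2 higher and 0 lower with limma-voom). Of all 14912 tested genes, edgeR called 1.48% higher and 1.12% lower, DESeq2 3.31% and 3.32%, and limma-voom 0.825% and 0.530%. Since the list was made with this difference known, nothing is read from the member count. The median log2 fold change of the 8 members was -0.03, beside -0.01 over all tested genes.

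**Figure D1:**
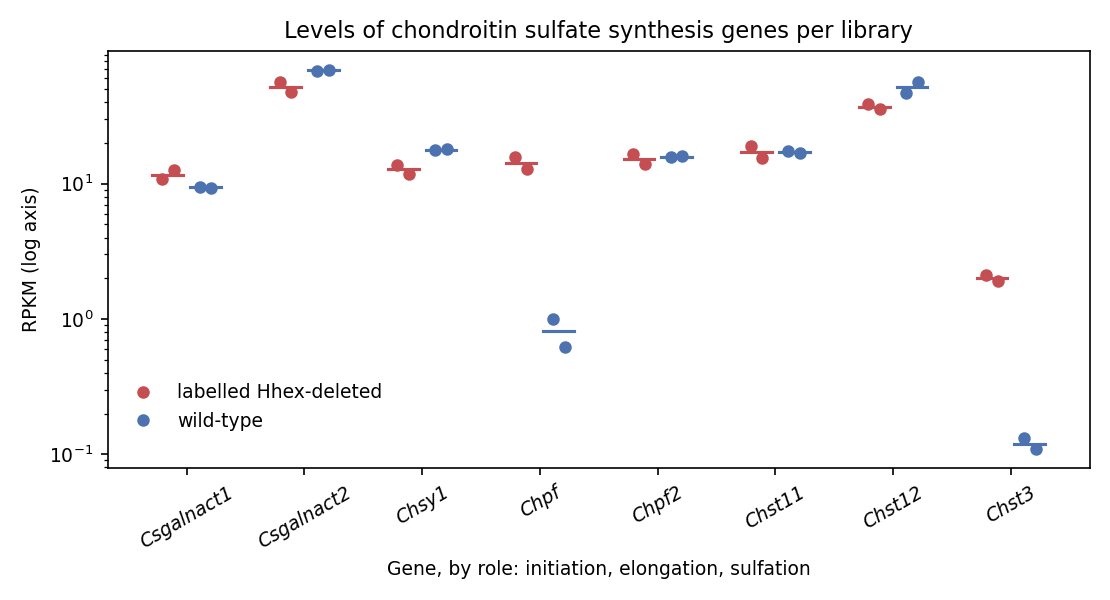
RPKM per library on a log axis, with a point for each library and a bar for the mean of 2, libraries labelled Hhex-deleted in red and wild-type in blue. Chpf and Chst3 lie more than 10-fold apart between the groups, while the other 6 genes lie close together.

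The initiation enzymes had small log2 fold changes of opposite sign, and neither was placed past the threshold. Csgalnact2, which adds the first N-acetylgalactosamine, had 205 and 173 CPM in the libraries labelled Hhex-deleted, against 249 and 254 CPM in wild-type, a log2 fold change of -0.41 ± 0.10 (SE). Csgalnact1, its paralogue with the same activity, had 42.4 and 49.6 CPM in the libraries labelled Hhex-deleted, against 37.3 and 36.9 CPM in wild-type, a log2 fold change of 0.31 ± 0.10 (SE). The groups overlapped for neither gene, as they did not for 6 of the 8 members and 45.5% of all tested genes. Per length, Csgalnact1 made up 16.1% and 21.0% of the summed RPKM of the pair in the libraries labelled Hhex-deleted, against 12.2% and 11.9% in wild-type.

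Of the extension genes, Chpf was the member with the largest difference. Reads of Chpf, the chondroitin polymerizing factor that lets the synthase make long chains, numbered 1488 and 1253 in the libraries labelled Hhex-deleted, against 89 and 57 in wild-type. On the CPM scale it had 51.0 and 41.6 CPM in the libraries labelled Hhex-deleted, against 3.25 and 2.00 CPM in wild-type, a log2 fold change of 4.14 ± 0.25 (SE), or 17.7-fold. The lowest library labelled Hhex-deleted lay far above the highest wild-type library, and with any 1 library left out the log2 fold change ran from 3.84 to 4.53 (3.99 without labelled Hhex-deleted replicate 1). Chpf2, its relative, had 61.6 and 51.7 CPM in the libraries labelled Hhex-deleted, against 58.6 and 59.0 CPM in wild-type, and its groups overlapped (log2 fold change -0.05 ± 0.10, SE). Chpf2 overlaps Smarcd3 in the GRCm38 annotation, as Csgalnact1 overlaps 1700125H03Rik, and reads of overlapping genes cannot be told apart where the strand setting is not given. Chsy1, the synthase itself, had 57.8 and 49.4 CPM in the libraries labelled Hhex-deleted, against 73.8 and 75.5 CPM in wild-type, without overlap (log2 fold change -0.48 ± 0.10, SE).

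The make-up of the extension genes therefore differed between the groups. Chpf made up 48.8% and 48.0% of the summed RPKM of Chpf and Chpf2 in the libraries labelled Hhex-deleted, against 5.99% and 3.74% in wild-type. Of the summed RPKM of Chsy1, Chpf and Chpf2 it made up 34.1% and 33.3% in the libraries labelled Hhex-deleted, against 2.91% and 1.78% in wild-type. These are shares of transcript, not of protein.

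The sulfotransferase genes showed the same contrast, with a large difference in a gene of low level. Reads of Chst3, which sulfates N-acetylgalactosamine at its 6-position, numbered 376 and 349 in the libraries labelled Hhex-deleted, against 22 and 19 in wild-type. That is 12.9 and 11.6 CPM in the libraries labelled Hhex-deleted, against 0.803 and 0.665 CPM in wild-type, a log2 fold change of 4.05 ± 0.23 (SE), or 16.6-fold. The groups lay far apart, and with any 1 library left out the log2 fold change ran from 3.93 to 4.19 (3.97 without labelled Hhex-deleted replicate 1). Chst11, which sulfates the 4-position, had 105 and 85.8 CPM in the libraries labelled Hhex-deleted, against 97.1 and 92.7 CPM in wild-type, and its groups overlapped (log2 fold change 0.00 ± 0.11, SE). Chst12, a further 4-position enzyme, had 68.7 and 63.1 CPM in the libraries labelled Hhex-deleted, against 83.4 and 101 CPM in wild-type, without overlap (log2 fold change -0.48 ± 0.11, SE). Chst3 was a small part of the 3 sulfotransferase genes in both groups, at 3.54% and 3.59% of their summed RPKM in the libraries labelled Hhex-deleted, against 0.204% and 0.148% in wild-type.

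**Figure D2:**
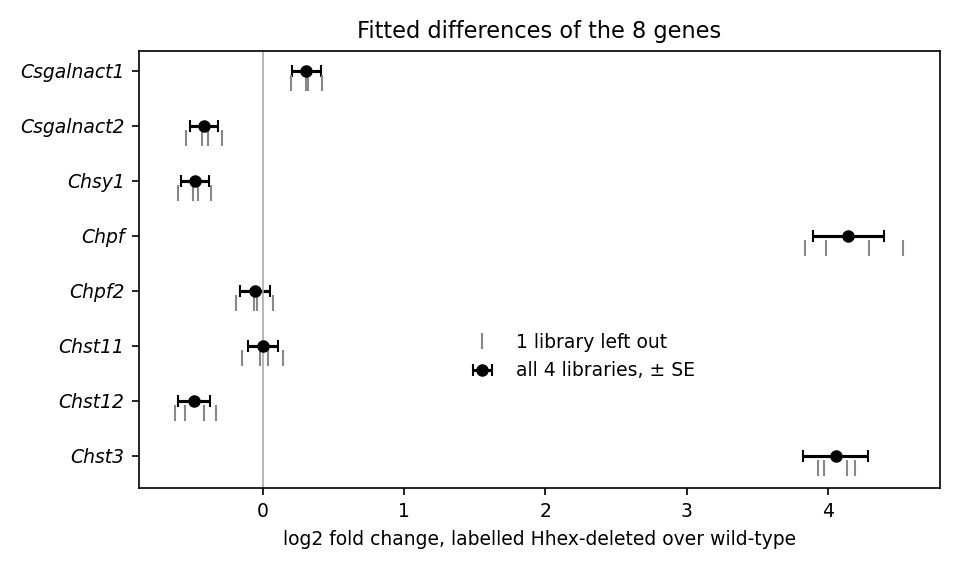
Log2 fold change of each gene, labelled Hhex-deleted over wild-type, as points with SE bars, and grey ticks for the values with 1 library left out. Chpf and Chst3 lie near 4 whichever library is left out, and the other 6 lie between -0.48 and 0.31.

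Chsy1, Chst12 and Csgalnact2 are the 3 members that DESeq2 placed past its threshold as lower and edgeR did not. The log2 fold changes of the 6 members with small differences moved with the choice of libraries. Without labelled Hhex-deleted replicate 1 they were -0.60 for Chsy1, -0.55 for Chst12, -0.54 for Csgalnact2, -0.19 for Chpf2, -0.15 for Chst11 and 0.42 for Csgalnact1. Without labelled Hhex-deleted replicate 2 they were -0.36 for Chsy1, -0.42 for Chst12, -0.29 for Csgalnact2, 0.07 for Chpf2, 0.15 for Chst11 and 0.20 for Csgalnact1. Chpf2 and Chst11 thus had either sign, depending on the library left out, and the other 4 kept theirs.

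RPKM (CPM per kilobase of the deposited gene length) allows levels to be compared between genes. From high to low, wild-type RPKM ran in the order Csgalnact2 (68.7 ± 1.11), Chst12 (51.6 ± 6.95), Chsy1 (17.9 ± 0.283), Chst11 (17.2 ± 0.565), Chpf2 (15.8 ± 0.0818), Csgalnact1 (9.42 ± 0.0826), Chpf (0.810 ± 0.274) and Chst3 (0.120 ± 0.0159; SD, n = 2 each). The ranges of no neighbours in that order overlapped. In the libraries labelled Hhex-deleted, Csgalnact2 (51.6 ± 6.14 RPKM) and Chst12 (36.9 ± 2.23 RPKM) again stood first and Chst3 (2.00 ± 0.151 RPKM; SD, n = 2) last. Between them, Chst11, Chpf2, Chpf, Chsy1 and Csgalnact1 followed with means of 17.2 to 11.7 RPKM, and each overlapped the next. Chpf, at 14.3 ± 2.06 RPKM (SD, n = 2), thus stood among the other extension genes, a level it did not have in wild-type.

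The gene that lies head to head with Chpf on chromosome 1, Tmem198, which encodes a membrane protein, rose as well. Their start sites are 61 bases apart in RefSeq on GRCm38.p6, and their promoter windows share 160 bases, in which both copies of TGACGTCA lie. Reads of Tmem198 numbered 134 and 100 in the libraries labelled Hhex-deleted, against 1 and 6 in wild-type (log2 fold change 4.94 ± 0.58, SE, edgeR adjusted p = 0.018). It stayed past the threshold in each fit with 1 library left out, at 4.21 to 6.61. These neighbours were chosen after values had been seen. Obsl1, the next gene on that side and a cytoskeletal adaptor gene, had 22.9 and 17.6 CPM in the libraries labelled Hhex-deleted, against 9.81 and 8.30 CPM in wild-type (log2 fold change 1.16 ± 0.18, SE, edgeR adjusted p = 0.0361). Obsl1 did not pass edgeR's test when labelled Hhex-deleted replicate 1 (adjusted p = 0.0545), wild-type replicate 1 (0.0681) or wild-type replicate 2 (0.149) was left out. Inha, the inhibin alpha subunit gene beyond it, had 3.25 and 3.15 CPM in the libraries labelled Hhex-deleted, against 1.61 and 1.26 CPM in wild-type, and did not pass the test (log2 fold change 1.16 ± 0.27, SE, adjusted p = 0.0937).

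On the other side of Chpf, Asic4 had at most 3 reads in any library. Gmppa, beyond Asic4, had 58.8 and 49.6 CPM in the libraries labelled Hhex-deleted, against 54.0 and 58.2 CPM in wild-type (log2 fold change -0.05 ± 0.11, SE). Around Chst3, taken equally far, 1 of 5 genes passed the test. Spock2 (log2 fold change 0.09 ± 0.42, SE) and Psap (-0.12 ± 0.08) lie next to it, and Ascc1 (-0.05 ± 0.09) and Cdh23 (-0.05 ± 0.34) 1 gene further. Vsir, the gene of an immune checkpoint protein that lies beyond Cdh23, had 48.2 and 47.7 CPM in the libraries labelled Hhex-deleted, against 78.7 and 99.6 CPM in wild-type (log2 fold change -0.90 ± 0.12, SE, edgeR adjusted p = 0.0252). With 1 library left out, Vsir passed edgeR's test when that was wild-type replicate 1 (adjusted p = 0.0148). It did not for either library labelled Hhex-deleted (0.0744 and 0.104) or for wild-type replicate 2 (0.0616). Over all members, 11 of the nearest protein-coding genes on either side were tested, and Tmem198 was the only gene among them past the threshold (2.60% of all tested genes were called in either direction).

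**Figure D3:**
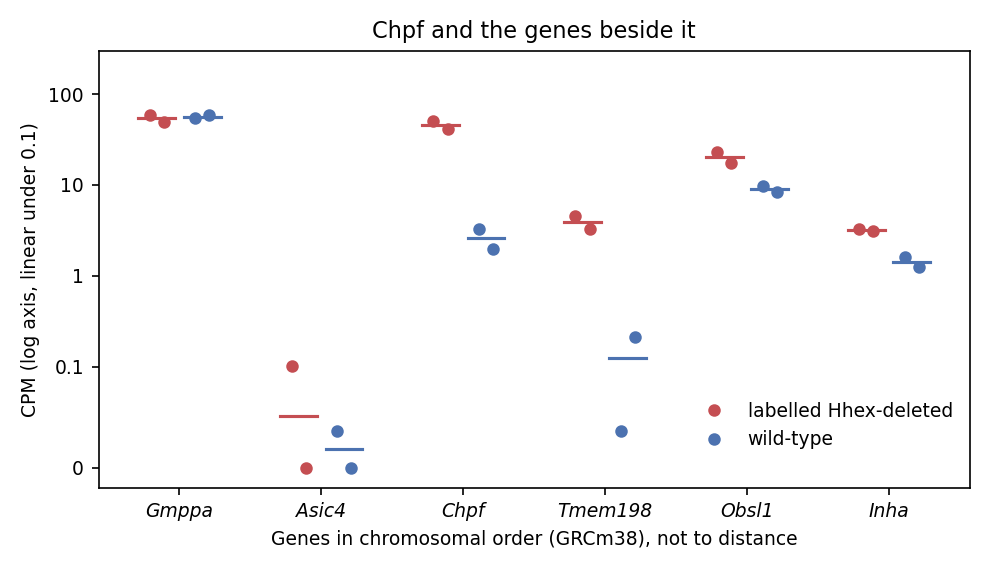
CPM per library of Chpf and the protein-coding genes beside it, in chromosomal order and not to distance, on a log axis that is linear under 0.1; points are libraries and bars are means of 2, labelled Hhex-deleted in red and wild-type in blue. Chpf, Tmem198, Obsl1 and Inha lie higher in the libraries labelled Hhex-deleted, while the groups of Gmppa overlap.

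Likeness to Chst3 was measured as the root mean square difference of log2 CPM, centred on the wild-type mean, over the 4 libraries, for 13427 other genes whose mean reached 1 CPM. The 5 nearest were Lef1 (0.114), Magi1 (0.147), Airn (0.212), Tulp3 (0.237) and Irs1 (0.278). Chpf stood at 0.427 from Chst3, with 16 genes nearer. The measure adds 0.5 CPM to each value, close to the wild-type mean of Chst3 (0.734 CPM), so it also depends on level. Log2 fold changes were 4.70 for Lef1, 3.84 for Magi1, 4.52 for Airn, 3.36 for Tulp3 and 6.56 for Irs1. Those of Chst3 and Chpf were 4.05 and 4.14, so nearness here is not likeness in fold change. Each of the 5 nearest stood under 2 CPM in the wild-type mean and between 7.11 and 19.5 CPM in the mean of the libraries labelled Hhex-deleted. Airn is an antisense RNA of Igf2r, and reads where they overlap cannot be told apart without strand.

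The rest of the pathway was described with 7 lists of 92 genes, chosen with earlier results of these data known, of which 68 were tested. Among them 5 were higher and 4 lower (7 and 8 with DESeq2, 1 and 1 with limma-voom), with a median log2 fold change of -0.03. That is 13.2% of the tested list genes called by edgeR, beside 2.60% of all tested genes (1.48% higher and 1.12% lower). As the lists were chosen with results known, nothing is read from this share or from the counts per list. Without a library, the counts were 6 higher and 2 lower (labelled Hhex-deleted replicate 1 left out), 5 and 2 (labelled Hhex-deleted replicate 2), 0 and 5 (wild-type replicate 1), and 0 and 1 (wild-type replicate 2). No called gene kept its call in all of these fits. Each fit leaves 1 library in a group and has less power. A lost call therefore does not show that a difference rests on a single library.

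In the linkage region list, whose enzymes build the sugar on which the chain starts, 1 of 7 genes fell and none rose, with a median of -0.09. It was Acpl2 (now Pxylp1), the phosphatase that removes a phosphate from the linker xylose, with 72.8 and 75.8 CPM in the libraries labelled Hhex-deleted, against 108 and 127 CPM in wild-type (log2 fold change -0.66 ± 0.10, SE, edgeR adjusted p = 0.0305). Of 7 tested genes among the other chondroitin and dermatan sulfate enzymes, 1 rose and none fell, with a median of 0.49. Chst15, which adds a second sulfate to units already sulfated at the 4-position, had 60.0 and 66.3 CPM in the libraries labelled Hhex-deleted, against 38.1 and 43.2 CPM in wild-type (log2 fold change 0.64 ± 0.10, SE, edgeR adjusted p = 0.0361). None of 12 genes of precursor supply, which make and carry the sugar nucleotides and the sulfate donor, passed edgeR's test, DESeq2 or limma-voom, or had an unadjusted edgeR p under 0.05 (0 genes). Their log2 fold changes ran from -0.25 to 0.37, with Ugdh, which makes UDP-glucuronate, at -0.17 ± 0.08 and Slc35d1, a transporter of nucleotide sugars, at 0.37 ± 0.17 (SE).

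Of 13 tested core protein genes, 2 rose and 1 fell, with a median of -0.15. Sdc1, the syndecan gene whose protein also carries heparan sulfate, had 29.2 and 44.7 CPM in the libraries labelled Hhex-deleted, against 7.15 and 6.37 CPM in wild-type (log2 fold change 2.45 ± 0.23, SE, edgeR adjusted p = 0.0131). The related membrane proteins App and Aplp2 moved in opposite directions. App fell to 72.6 and 63.8 CPM in the libraries labelled Hhex-deleted, against 124 and 169 CPM in wild-type (log2 fold change -1.10 ± 0.17, SE, edgeR adjusted p = 0.0407). Aplp2 rose to 166 and 141 CPM in the libraries labelled Hhex-deleted, against 96.2 and 96.5 CPM in wild-type (log2 fold change 0.67 ± 0.10, SE, edgeR adjusted p = 0.0291). Srgn, the serglycin gene, chosen after its values were seen, had 1140 and 1092 CPM in the libraries labelled Hhex-deleted, against 1321 and 1318 CPM in wild-type, and did not pass the test (log2 fold change -0.24 ± 0.07, SE).

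Of 11 tested breakdown genes 1 fell and none rose, with a median of -0.19. Hexa, a subunit gene of lysosomal hexosaminidase, had 110 and 92.2 CPM in the libraries labelled Hhex-deleted, against 155 and 171 CPM in wild-type (log2 fold change -0.69 ± 0.11, SE, edgeR adjusted p = 0.0358). Heparan sulfate is the other chain type built on the same linker, and of its 15 tested enzyme genes 2 rose and 1 fell, with a median of -0.02. Ext1, a subunit gene of the heparan polymerase, averaged 29.7 ± 4.61 CPM in the libraries labelled Hhex-deleted, against 16.6 ± 0.863 CPM in wild-type (SD, n = 2 each; log2 fold change 0.84 ± 0.14, SE, edgeR adjusted p = 0.0407). Ndst2, a heparan sulfotransferase gene known for its part in mast cell heparin, rose by 0.52 ± 0.08 (SE, edgeR adjusted p = 0.0379), and Hpse, the heparanase gene, fell by 1.10 ± 0.14 (SE, edgeR adjusted p = 0.0226), both on the log2 scale. None of 3 tested genes among the other carbohydrate sulfotransferases passed edgeR's test (3 higher at an unadjusted p under 0.05, 1 called by DESeq2 and 0 by limma-voom). Of these, Chst2 had 1.23 and 3.35 CPM in the libraries labelled Hhex-deleted, against 0.401 and 0.560 CPM in wild-type, and Chst1 averaged 3.79 ± 1.71 CPM in the libraries labelled Hhex-deleted, against 1.68 ± 0.00150 CPM in wild-type (SD, n = 2 each).

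**Figure D4:**
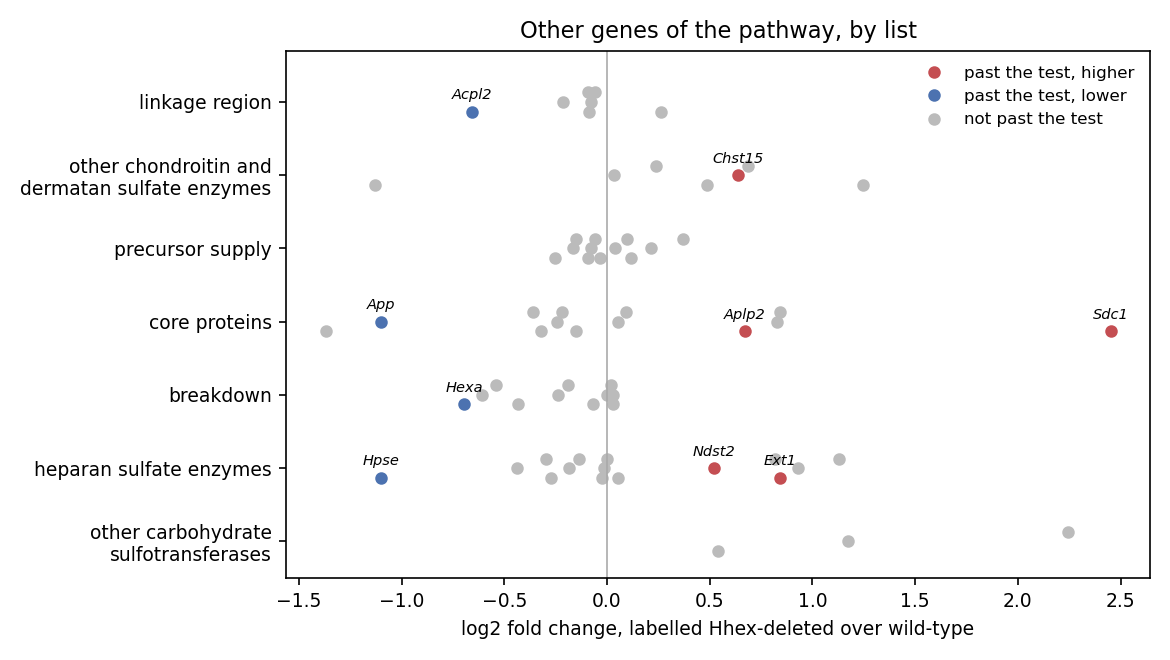
Log2 fold change, labelled Hhex-deleted over wild-type, of the 68 tested genes in 7 lists, with genes past edgeR's test named (red higher, blue lower) and the others in grey. Sdc1 lies farthest to the right at 2.45, and the other called genes lie between -1.10 and 0.84.

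Markers of some other cell types also differed between the groups, in either direction. In bulk RNA, fewer cells of a type and less RNA per cell cannot be told apart. Beside the marker counts below, edgeR called 1.48% of all tested genes higher and 1.12% lower. The lists were chosen with earlier results known, so nothing is read from these counts. Of 8 tested mast cell and basophil markers (10 of 11 matched) 5 were higher, and the list's summed level was 1433 and 1258 CPM in the libraries labelled Hhex-deleted, against 568 and 536 CPM in wild-type. The 5 were Cpa3, Ms4a2, Fcer1a, Mcpt8 and Prss34, with log2 fold changes of 1.81 to 2.71, and Gata2 (0.76), Cma1 (1.05) and Hdc (-0.50) did not pass. Reads of the mast cell chymase Cma1 numbered 72 and 51 in the libraries labelled Hhex-deleted, against 35 and 21 in wild-type. Mast cell tryptase Tpsb2 had no read in the libraries labelled Hhex-deleted, against 6 and 5 reads in wild-type, and Mcpt4 had at most 4 reads in any library. Of 12 B cell precursor markers 11 were higher, with sums of 659 and 939 CPM in the libraries labelled Hhex-deleted, against 183 and 208 CPM in wild-type. The 11 had log2 fold changes of 2.03 (Dntt) to 4.04 (Pax5), and Cd79b (0.32) did not pass. Dntt made up most of these sums. It had 475 and 698 CPM in the libraries labelled Hhex-deleted, against 135 and 153 CPM in wild-type. Pax5 was low, with 2.16 and 3.25 CPM against 0.109 and 0.210 CPM.

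Of 9 macrophage markers 3 were higher and 1 lower, with sums of 127 and 109 CPM in the libraries labelled Hhex-deleted, against 172 and 190 CPM in wild-type. The higher genes were C1qa, C1qb and C1qc, with log2 fold changes of 2.27, 2.08 and 2.22. Vcam1 was the lower gene (-1.50), and Csf1r (-1.21) did not pass. The lower sums came from Vcam1 and Csf1r, with wild-type means of 64.5 and 72.8 CPM. Their means in the libraries labelled Hhex-deleted were 22.9 and 31.6 CPM. The sums thus do not show that macrophage markers were lower as a set. Of 9 tested markers of neutrophils and granulocyte progenitors (10 in the list) 1 was lower, with sums of 11952 and 8855 CPM in the libraries labelled Hhex-deleted, against 17236 and 21446 CPM in wild-type. The lower gene was Elane (log2 fold change -1.35). Mpo (-0.73), which did not pass, made up most of these sums. It had 8748 and 5846 CPM in the libraries labelled Hhex-deleted, against 11153 and 13052 CPM in wild-type. The groups overlapped for S100a9, Ltf, Ngp and Camp and not for the other tested genes of the list. None of 9 megakaryocyte and erythroid markers passed, with sums of 806 and 632 CPM in the libraries labelled Hhex-deleted, against 568 and 525 CPM in wild-type. Of 3 tested T cell markers 1 was higher, with sums over 7 markers of 22.7 and 41.8 CPM in the libraries labelled Hhex-deleted, against 20.6 and 21.9 CPM in wild-type. The higher gene was Zap70 (log2 fold change 2.59), and Lck (0.56) and Cd4 (-0.48) did not pass. Lck made up most of these sums. It had 17.3 and 32.5 CPM in the libraries labelled Hhex-deleted, against 16.3 and 17.6 CPM in wild-type. Cd3e, Cd3d, Cd3g and Cd8a had at most 17 reads in any library and were not tested. The part of these cell types in the values of Chpf and Chst3 was not tested. None of 4 tested markers of stroma, bone and cartilage, tissues known for chondroitin sulfate, passed the test, with sums over 10 markers of 183 and 239 CPM in the libraries labelled Hhex-deleted, against 215 and 192 CPM in wild-type. Runx2 and Pdgfrb made up most of that sum, with 108 to 142 CPM and 68.5 to 92.6 CPM per library. Reads of Col1a2 numbered 147 and 42 in the libraries labelled Hhex-deleted, against 42 and 42 in wild-type, and reads of Cxcl12 numbered 28 and 88, against 31 and 26 in wild-type. The other 6 markers (Col1a1, Col2a1, Acan, Lepr, Bglap and Sp7) had at most 8 reads in any library.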

How the data were processed

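Libraries were prepared from LSK cell RNA with a TruSeq kit, per the labels. The authors deposited raw counts per Entrez gene with a gene length, and log2 RPKM values for 12662 genes per library. Subread, featureCounts, limma and build mm9 appear in the submitters' processing notes, with no versions or roles. How strand, multi-mapping reads and pooling were handled is not given in the sources used here. RefSeq tables are of GRCm38, another build, and served for names, gene order and promoter windows. A symbol was found for 24255 of 26286 identifiers.

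The deposited counts were fitted with edgeR 4.0.16 under R 4.3.3: filterByExpr (minimum count 10, total 15) left 14912 genes, libraries were scaled by TMM, and a robust quasi-likelihood model with group as its term was fitted to all 4 libraries. P-values were adjusted by Benjamini-Hochberg over all tested genes (threshold 0.05). Log2 fold changes are labelled Hhex-deleted over wild-type, with a prior count of 0.125. SE is the fold change's size over the root of F, an approximation. RPKM here is CPM, on TMM-scaled totals, per kilobase. The likeness measure used a pseudocount of 0.5 CPM. Alternatives included DESeq2 1.42.0 and limma 3.58.1. The edgeR, DESeq2 and limma-voom steps were tested on simulated data. There, edgeR recovered 54% of 2-fold and 89% of 4-fold differences, DESeq2 63% and 88%, and limma-voom 51% and 87%. False calls numbered 17 with edgeR, 36 with DESeq2 and 6 with limma-voom. With no difference put in, calls numbered 5, 16 and 4.

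Members and lists were chosen with earlier results of these data known. Genes named are all members, genes of each list past the test (or otherwise the 2 with the smallest p) and the 5 nearest to Chst3; 1 of 178 list entries, Tpsab1, was not matched.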

Additional observations from a re-analysis of the deposited data

How the results depend on the processing

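For Chpf and Chst3, chosen with these values known, the settings are given as a description only. A prior count of 2 gave log2 fold changes of 4.11 and 3.94 for them. Members lower numbered 3 with DESeq2, 1 (Chsy1) with no low-count filter, 0 to 2 with a library left out (2 with labelled Hhex-deleted replicate 1 out), and 0 otherwise. Over all genes, 221 were higher and 167 lower. DESeq2 called 493 and 495, limma-voom 123 and 79, and limma on the deposited log2 RPKM 34 and 6. Lower genes numbered 86 with library totals, 272 with no low-count filter and 99 without robust dispersion. With a library left out there were 84 to 366 higher (366 with labelled Hhex-deleted replicate 1 out, 119 with wild-type replicate 1 out and 84 with wild-type replicate 2 out) and 40 to 231 lower (40 without wild-type replicate 2). Over the 7 pathway lists, higher and lower genes numbered 3 and 1 with library totals, 1 and 1 with limma-voom, 2 and 1 without robust dispersion, and 0 and 0 with the deposited log2 RPKM; 8 were lower with DESeq2. They ran from 0 to 6 and from 1 to 5 with a library left out. The causes were not tested.

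With the replicate number as a block, 185 and 130 genes were called over all genes, 2 members were higher, and 5 and 2 list genes. The labels give no shared animal or day for a number, and the deviations of same-numbered libraries correlated at 0.326 across genes. The order of the members by level in wild-type was that of the deposited log2 RPKM for all 8. Chst3 rests on 19 to 22 reads per wild-type library.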
